A study of Homo sapiens with 45 samples.

Results

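T47D, a luminal breast cancer cell line that expresses the oestrogen receptor, was kept in hypoxia and exposed to 1% 1,6-hexanediol for 24 h, and its polyadenylated RNA was compared with that of hypoxic control cells. The 3 libraries labelled 1% 1,6-hexanediol and the 3 labelled hypoxia control were taken by their labels from the hexanediol count table, and all 16840 genes that passed the filter on low counts, of 60624 listed, were compared. These 6 libraries belong to a series of 45 libraries in 15 groups, which also holds 3 hypoxic libraries treated with 0.5% 1,6-hexanediol for 24 h (used below for dose), and an shRNA table of 9 libraries (3 each of shCtrl in normoxia, shCtrl in hypoxia and shZHX2 in hypoxia, used below to class genes). The stated purposes were to measure expression after phase separation had been disturbed and to find hypoxia-induced genes that depend on ZHX2. ZHX2 encodes a transcription factor with zinc fingers and homeodomains. The sources used here do not give the oxygen level, the length of hypoxia before treatment or what the control cells received in place of hexanediol. All libraries come from 1 cell line. No label states that the replicates are separate cultures, and a p-value here therefore reflects library-to-library spread that may be technical only.

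1,6-Hexanediol is a small aliphatic alcohol that weakens hydrophobic contacts and dissolves many liquid-like condensates, the membraneless bodies in which transcription factors, coactivators and RNA can gather. It acts on the whole cell, and long exposure also affects membranes, the cytoskeleton and enzymes. Cells under such stress commonly use the integrated stress response, in which the translation factor eIF2 is phosphorylated and the transcription factors ATF4 and CHOP are made, and the unfolded protein response of the endoplasmic reticulum. In T47D cells identity and growth rest largely on oestrogen receptor alpha and its luminal partners GATA3 and FOXA1, and hypoxia adds a programme of glycolytic and angiogenic genes driven by HIF.

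Total counts per library lay between 14111216 and 17713327 in the hexanediol table. The second 1% library stood apart from replicates 1 and 3: the chi-square per degree of freedom over genes was 9.77 and 9.90 against them and 2.04 between those, and it was at least 2-fold below their mean in 243 genes and above it in 49. The second 0.5% library stood apart in its group as well (29.5 and 27.3 against 3.48), and in 36 of 37 hypoxia response genes the second 1% library lay below replicates 1 and 3, so results on those genes are given with and without the second libraries. Of 11 markers of T47D cells all were detected, but their summed level was 25070 to 27900 CPM (the TMM-scaled level, relative to library size) in the control libraries and 3616 to 3859 CPM with 1% hexanediol. Most of the control sum came from the keratins KRT8, KRT19 and KRT18, so the drop in the sum is mainly theirs. Of the other markers, ESR1, PGR, GATA3, FOXA1, SPDEF and TFF1 also fell, while EPCAM and CDH1 changed little (log2 fold changes 0.07 and -0.21). The summed level of 6 fibroblast markers was 39.4 to 45.5 CPM in controls and 45.1 to 49.9 CPM with 1% hexanediol, that of 4 endothelial markers at most 5.13 CPM and that of 5 leukocyte markers at most 6.18 CPM. In these bulk samples fewer cells of a type and less RNA per cell cannot be told apart.

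With 1% hexanediol 5084 genes were higher (30.2% of those tested) and 5439 lower (32.3%) at an adjusted p under 0.05 in edgeR's quasi-likelihood test with Benjamini-Hochberg adjustment. At least 2-fold changes were called for 1875 genes higher (11.1%) and 2143 lower (12.7%), and the median log2 fold change over all tested genes was -0.04. Because 30.2% and 32.3% of all genes were called, a list with about that share of called members is no result about its members. Scaling to library size alone moved every gene by a median of 0.18 on the log2 scale and the share of higher genes among all calls from 48.3% to 59.8%. Base composition moved with the change: among 13801 protein-coding genes the median GC content was 44.2% for those higher at least 2-fold and 56.0% for those lower at least 2-fold, and Spearman's rho between log2 fold change and GC content, across genes that are not independent replicates, was -0.33. After a GC and length correction that rho was -0.02, and 8561 of the 10523 calls were kept in the same direction. The part of base composition in the single results was not tested beyond that correction.

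**Figure D1:**
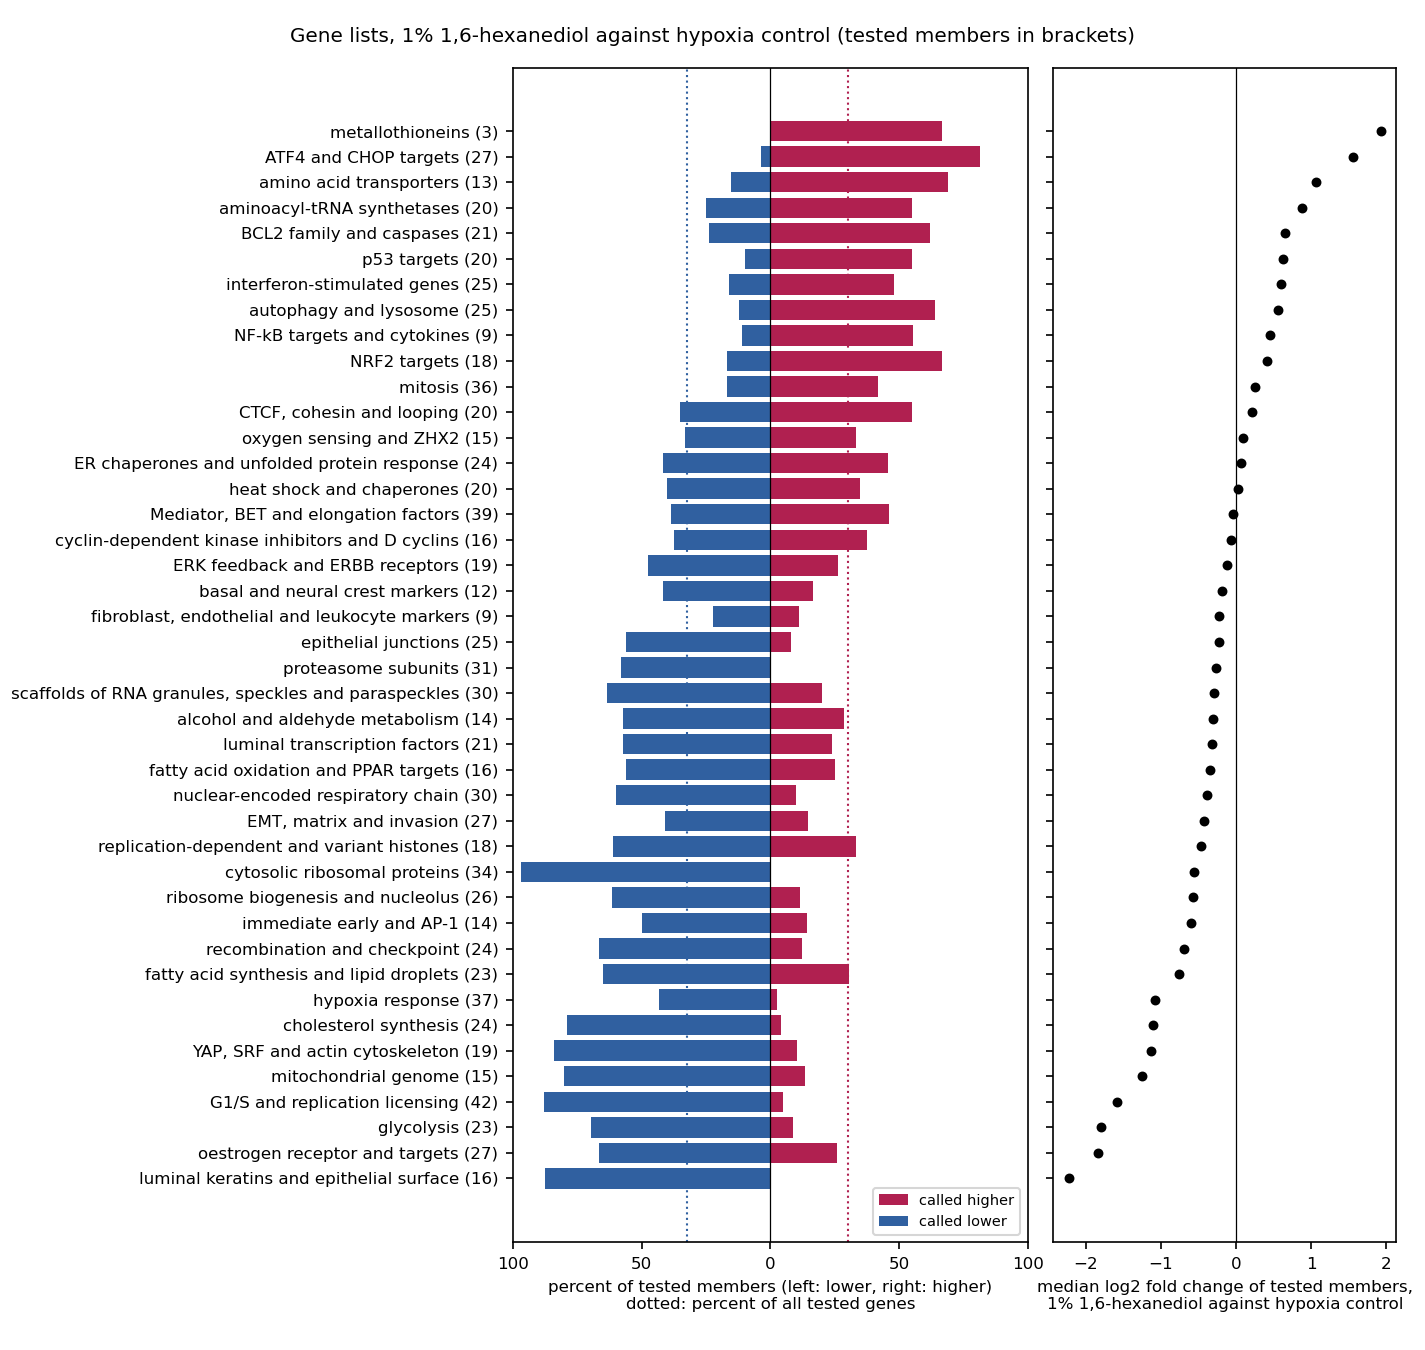
Left, the percent of tested members of 42 gene lists that were called higher (red, to the right) or lower (blue, to the left) with 1% 1,6-hexanediol against hypoxia control, with dotted lines at the share of all tested genes (30.2% and 32.3%). Right, the median log2 fold change of each list. ATF4 and CHOP targets lie near the upper end at a median of 1.56 and luminal keratins at the lower end at -2.22.

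Genes of the integrated stress response rose together. Of 27 tested ATF4 and CHOP targets 22 rose and 1 fell, with a median log2 fold change of 1.56, and the counts were the same when any 1 control or 1% library was left out. DDIT3, which encodes the stress transcription factor CHOP (ENSG00000175197, chromosome 12, 57516588 to 57521737, minus strand), stood at 32.3, 32.1 and 30.4 CPM in controls and 780.4, 1020 and 775 CPM at 1% (log2 fold change 4.76, SE 0.13, adjusted p = 5.01e-12). All 3 treated libraries lay more than 20-fold above every control library, with the second one highest. ATF4 itself stood at 213, 227 and 202 CPM in controls and 549.6, 599.7 and 536 CPM at 1% (log2 fold change 1.39, SE 0.09, adjusted p = 6.97e-09). Its targets for amino acid supply rose from low levels: ASNS, asparagine synthetase, stood at 0.208, 0.150 and 0.326 CPM in controls and 3.94, 2.80 and 3.54 CPM at 1% (log2 fold change 3.83, SE 0.36, adjusted p = 3.39e-07), and the treated and control libraries did not overlap. SLC7A11, the cystine importer, stood at 7.71, 6.52 and 6.65 CPM in controls and 74.1, 78.8 and 67.9 CPM at 1% (log2 fold change 3.40). PPP1R15A, the phosphatase subunit that reverses eIF2 phosphorylation, stood at 85.4, 83.5 and 82.0 CPM in controls and 319, 374 and 336 CPM at 1% (log2 fold change 2.04). The serine and one-carbon enzymes PSAT1, PHGDH and MTHFD2 changed by 2.60, 1.13 and 1.73 on the log2 scale, and all were called. STC2, a secreted glycoprotein that also sits in the oestrogen and hypoxia lists, was the 1 member that fell, with 2038, 1971 and 2048 CPM in controls and 262, 209.8 and 274 CPM at 1% (log2 fold change -3.02, adjusted p = 0.000784).

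Amino acid transporters and the enzymes that charge tRNAs, many of them targets of ATF4, mostly rose. Of 13 tested transporters 9 rose and 2 fell (median 1.07), and neither fall was called when any 1 of the 1% libraries was left out. Among 20 aminoacyl-tRNA synthetases 11 rose and 5 fell (median 0.88), or 3 fell with scaling to library size alone. GARS1, the glycyl-tRNA synthetase, stood at 192, 209.6 and 189 CPM in controls and 741, 896 and 731 CPM at 1% (log2 fold change 2.00, SE 0.09, adjusted p = 1.43e-10). WARS1, the tryptophanyl-tRNA synthetase, stood at 75.2, 79.0 and 71.6 CPM in controls and 211, 317 and 218 CPM at 1% (log2 fold change 1.72, SE 0.21, adjusted p = 0.000129). NUPR1, a small stress-induced chromatin protein, and NIBAN1, a stress-induced regulator of translation, were among the 10 genes with the largest gain in CPM, a scale not divided by gene length. NIBAN1 stood at 76.4, 74.2 and 73.4 CPM in controls and 1255, 1563 and 1261 CPM at 1% (log2 fold change 4.19). NUPR1 stood at 610.2, 641 and 614 CPM in controls and 1603, 1943 and 1680 CPM at 1% (log2 fold change 1.49). GADD45A, a growth arrest gene, rose by 4.95 on the log2 scale, from 2.85, 3.30 and 3.06 CPM to 91.0, 94.6 and 98.8 CPM.

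The unfolded protein response of the endoplasmic reticulum split instead of rising together. Its sensor genes rose: ERN1 (IRE1 alpha) stood at 9.17, 8.77 and 9.85 CPM in controls and 73.9, 83.3 and 76.9 CPM at 1% (log2 fold change 3.07, SE 0.09, adjusted p = 5.01e-12), ATF6 changed by 1.33 and EIF2AK3 (PERK) by 0.51. HSPA5, which encodes the chaperone BiP (ENSG00000044574, chromosome 9, 125234853 to 125241330, minus strand), stood at 1326, 1393 and 1334 CPM in controls and 3013, 4867 and 2997 CPM at 1% (log2 fold change 1.43, SE 0.17, adjusted p = 3.57e-05). HYOU1, its exchange factor, stood at 430.3, 440.3 and 448 CPM in controls and 1390, 2057 and 1471 CPM at 1% (log2 fold change 1.90, SE 0.29, adjusted p = 0.00101). In both genes the second treated library was the highest, the groups did not overlap, and both stayed called without it. XBP1 (ENSG00000100219, chromosome 22, 28794555 to 28800597, minus strand), whose mRNA is spliced by IRE1 and which is also a target of the oestrogen receptor, went the other way, at 2911, 3185 and 2877 CPM in controls and 706, 921 and 769 CPM at 1% (log2 fold change -1.91, SE 0.09, adjusted p = 4.77e-10). The protein disulphide isomerase genes PDIA4, PDIA3 and PDIA6 fell, with log2 fold changes of -0.75, -0.58 and -0.59, and the lectin chaperone CALR stood at 1750, 1858 and 1859 CPM in controls and 1236, 1561 and 1418 CPM at 1% (log2 fold change -0.37). In all, 11 of 24 tested members of this list rose and 10 fell, with a median of 0.07, and the counts were the same without the second 1% library. Gene counts do not separate spliced from unspliced XBP1.

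The ER stress element, CCAAT and CCACG separated by 9 bases, is the site through which ATF6 and XBP1 act on chaperone genes. It was found on either strand in the promoter windows (250 bases before to 50 after the start, RefSeq, GRCh38.p14) of 6 of the 23 genes of this list that have a window and of 15 of all 11970 tested genes with a window (0.125%). It lay in 3 of 1317 windows of genes higher at least 2-fold (0.228%) and in 1 of 1368 of genes lower at least 2-fold (0.0731%). The 4 stretches below were picked because genes with the same element changed in opposite directions. The other list genes with the element are not shown. Capitals mark the element, which reads in reverse complement in CALR.
HSPA5 (chr9:125241371-125241429, minus strand): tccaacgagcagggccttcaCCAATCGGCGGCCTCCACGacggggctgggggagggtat
CANX (chr5:179698758-179698816, plus strand): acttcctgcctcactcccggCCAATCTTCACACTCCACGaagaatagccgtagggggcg
XBP1 (chr22:28800583-28800641, minus strand): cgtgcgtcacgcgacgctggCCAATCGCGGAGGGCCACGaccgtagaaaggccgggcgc
CALR (chr19:12938364-12938422, plus strand): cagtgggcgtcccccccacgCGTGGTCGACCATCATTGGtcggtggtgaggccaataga
Of these, HSPA5 rose by 1.43 and CANX, the membrane-bound lectin chaperone, by 0.30 on the log2 scale, while XBP1 and CALR changed by -1.91 and -0.37. CANX and CALR were not called after the GC and length correction (0.08 and -0.16).

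The amino acid response element TGATGNAAN, bound by ATF4 with partners of the C/EBP family, lay in 47 of 1317 promoter windows of genes higher at least 2-fold (3.57%), in 16 of 1368 windows of genes lower at least 2-fold (1.17%) and in 208 of all 11970 (1.74%). These shares were not adjusted for base composition, which differed between higher and lower genes, and its part in them was not tested. Stretches from 4 genes that rose are shown, with the element in capitals; it reads in reverse complement in CHAC1 and HERPUD1.
ASNS (chr7:97872448-97872496, minus strand): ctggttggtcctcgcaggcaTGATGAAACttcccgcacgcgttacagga
CHAC1 (chr15:40953241-40953289, plus strand): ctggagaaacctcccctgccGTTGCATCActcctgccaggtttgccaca
ATF3 (chr1:212565196-212565244, plus strand): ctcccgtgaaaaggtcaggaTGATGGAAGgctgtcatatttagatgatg
HERPUD1 (chr16:56931945-56931993, plus strand): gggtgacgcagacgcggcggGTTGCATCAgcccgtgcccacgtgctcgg
In ASNS the element begins 68 bases before the annotated start. CHAC1, a glutathione-degrading enzyme, stood at 0.278, 0.0749 and 0.261 CPM in controls and 4.27, 4.89 and 4.54 CPM at 1% (log2 fold change 4.40). ATF3, a stress-induced repressor, stood at 46.8, 44.7 and 46.0 CPM in controls and 132, 141 and 138 CPM at 1% (log2 fold change 1.58). HERPUD1, a part of the machinery that removes misfolded proteins from the endoplasmic reticulum, stood at 21.4, 24.5 and 22.2 CPM in controls and 57.7, 61.6 and 57.3 CPM at 1% (log2 fold change 1.38). A match describes letters in these windows and does not show that a factor binds there.

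**Figure D2:**
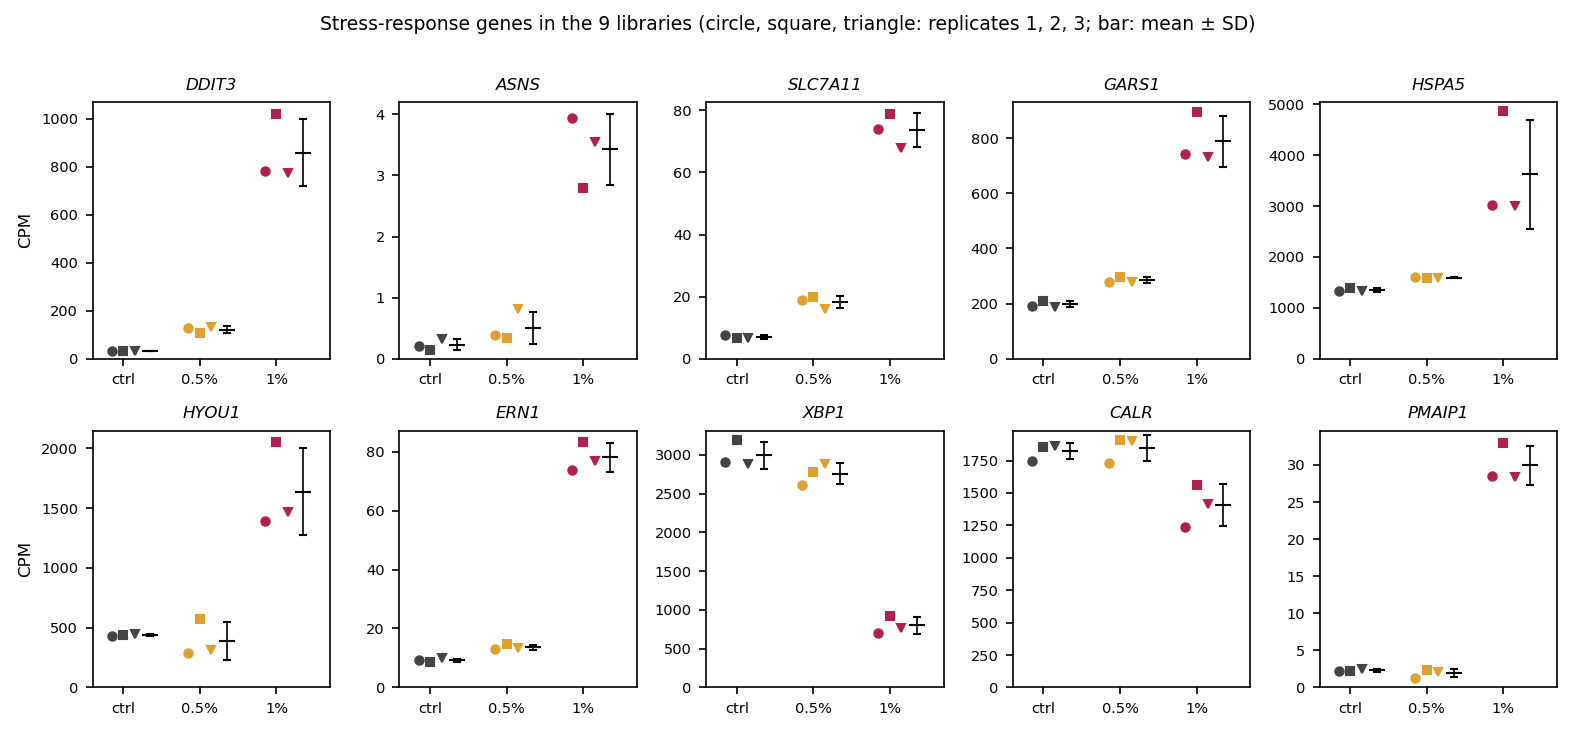
CPM (vertical axis, from 0) of 10 stress-response genes in each of the 9 libraries of the hexanediol table, by group; circles, squares and triangles are replicates 1, 2 and 3, and the bar is the mean ± SD. DDIT3, ASNS, SLC7A11, GARS1, HSPA5, HYOU1, ERN1 and PMAIP1 are highest in the 3 libraries with 1%, and XBP1 and CALR are lowest there.

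Lists of protein quality control genes differed from each other. Of 20 tested heat shock and chaperone genes 7 rose and 8 fell (median 0.03), the falls numbering 3 with scaling to library size alone and 4 after the GC and length correction. These counts lie near the 30.2% and 32.3% of all genes, which is no result about this list. HSPA8, the constitutive HSP70, stood at 2425, 2525 and 2354 CPM in controls and 3487, 4658 and 3505 CPM at 1% (log2 fold change 0.67, adjusted p = 0.00199), and the mitochondrial chaperones HSPA9 and HSPD1 rose by 1.06 and 1.07. HSPB1, a small heat shock protein, fell by 1.93, and HSPA1A, the inducible HSP70 with a near-identical copy, fell by 0.51, a call that was lost after the GC and length correction (-0.12, adjusted p = 0.509 in edgeR). All 18 called proteasome subunits of 31 tested fell, with a median of -0.27; PSMC3 fell by 1.06. NFE2L1, the transcription factor that raises proteasome genes when the proteasome is impaired, stood at 1013, 964 and 1023 CPM in controls and 1987, 2306 and 2002 CPM at 1% (log2 fold change 1.07). Autophagy and lysosome genes leaned upward, with 16 of 25 higher and 3 lower (median 0.56), or 5 lower without the second library of both doses. CTSL, the protease cathepsin L, stood at 61.6, 67.3 and 58.5 CPM in controls and 256, 278 and 275 CPM at 1% (log2 fold change 2.11, adjusted p = 2.38e-11). CTSD, the protease cathepsin D and an oestrogen target, stood at 86.6, 79.9 and 71.1 CPM in controls and 22.7, 29.2 and 26.1 CPM at 1% (log2 fold change -1.60, adjusted p = 7.12e-09).

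Genes that decide between survival and death of the cell changed on both sides. Of 21 tested BCL2 family and caspase genes 13 rose and 5 fell (median 0.65). PMAIP1, the BH3-only protein NOXA, stood at 2.15, 2.25 and 2.48 CPM in controls and 28.5, 33.0 and 28.4 CPM at 1% (log2 fold change 3.70, SE 0.16, adjusted p = 1.55e-10). TNFRSF10B, the death receptor DR5 and a CHOP target, stood at 17.8, 15.9 and 15.8 CPM in controls and 61.9, 72.5 and 62.0 CPM at 1% (log2 fold change 1.99, SE 0.11, adjusted p = 1.53e-09). BCL2L11 (BIM) changed by 1.41 and CASP9 by 1.29. BID, which links death receptors to mitochondria, fell by 2.46, from 19.8, 22.6 and 19.9 CPM to 4.54, 4.17 and 2.61 CPM. On the protective side, BIRC3 and BCL2L2 rose by 1.86 and 1.43, while BCL2L1 fell by 0.68 and MCL1 by 0.25. Of 20 p53 target genes 11 rose and 2 fell (median 0.63); CDKN1A, the cell cycle inhibitor p21, stood at 9.73, 10.5 and 9.72 CPM in controls and 19.9, 28.5 and 22 CPM at 1% (log2 fold change 1.24, adjusted p = 1.5e-05), and ZMAT3 rose by 1.70. T47D cells are known to carry mutant p53, and several list members are also ATF4 or CHOP targets. The part of p53, ATF4 or CHOP in these rises was not tested. Among 18 NRF2 targets 12 rose and 3 fell (median 0.42).

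The oestrogen receptor and most of its targets fell. ESR1 (ENSG00000091831, chromosome 6, 151656691 to 152129619, plus strand), the receptor gene, stood at 152, 143 and 157 CPM in controls and 34.0, 32.1 and 32.6 CPM at 1% (log2 fold change -2.19, SE 0.12, adjusted p = 1.71e-09). Every treated library lay far below every control library. Of 27 tested receptor and target genes 18 fell and 7 rose (median -1.83), with the same counts without the second 1% library. PGR, the progesterone receptor, stood at 488, 483 and 522 CPM in controls and 63.2, 50.1 and 61.4 CPM at 1% (log2 fold change -3.10, SE 0.21, adjusted p = 2.24e-06). CCND1, cyclin D1, stood at 212, 209 and 236 CPM in controls and 28.3, 20.5 and 30.2 CPM at 1% (log2 fold change -3.06, SE 0.13, adjusted p = 3.89e-10). IGFBP5, a secreted binder of insulin-like growth factors, stood at 3894, 3612 and 4171 CPM in controls and 286, 254 and 302 CPM at 1% (log2 fold change -3.79), one of the 10 largest losses in CPM. GREB1, a receptor cofactor and target, fell by 1.61. The 7 members that rose included SLC7A2, an arginine transporter (1.89), TPD52L1 (1.08) and SIAH2, a ubiquitin ligase (0.82). The palindromic oestrogen response element was found in 1 of all 11970 promoter windows and in none of the 19 windows of this list, which speaks only of those windows.

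Luminal transcription factors differed in direction between the doses. With 1% hexanediol 12 of 21 fell and 5 rose (median -0.32). With 0.5% hexanediol, where 19.4% of all genes were higher and 19.6% lower than in control, 11 of the 21 rose and 2 fell. These comparisons share the control libraries. In the direct comparison of the doses, where 28.3% of all genes were higher and 27.7% lower at 1%, 3 of the 21 were higher and 14 lower at 1%. GATA3 stood at 308, 303 and 304 CPM in controls, 462, 503 and 445 CPM at 0.5% and 132, 145 and 146 CPM at 1% (1% against 0.5%: log2 fold change -1.74, SE 0.07, adjusted p = 1.87e-10). SPDEF, an ETS factor of luminal and secretory epithelium, stood at 58.7, 57.2 and 47.9 CPM in controls, 94.5, 88.5 and 86.3 CPM at 0.5% and 20.8, 19.3 and 18.1 CPM at 1% (1% against 0.5%: log2 fold change -2.21, SE 0.09, adjusted p = 2.19e-10). FOXA1, the pioneer factor of the oestrogen receptor, stood at 151, 139.8 and 156 CPM in controls, 188, 171 and 191 CPM at 0.5% and 49.7, 59.3 and 52.4 CPM at 1% (1% against 0.5%: log2 fold change -1.77, SE 0.08, adjusted p = 5.54e-10). In all 3 genes the 0.5% libraries were the highest and the 1% libraries the lowest, with no overlap. ESRP1, an epithelial splicing regulator, rose by 1.24 with 1% while its relative ESRP2 fell by 1.84.

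Most luminal keratin genes tested fell. Of 16 tested luminal keratin and epithelial surface genes 14 fell and 0 rose (median -2.22). KRT8 (ENSG00000170421, chromosome 12, 52897187 to 52949954, minus strand), the main type II keratin of simple epithelia, stood at 15600, 17040 and 15130 CPM in controls and 1842, 1714 and 1845 CPM at 1% (log2 fold change -3.15, SE 0.14, adjusted p = 1.49e-09), the largest loss in CPM of any gene with groups that did not overlap. KRT19 stood at 5870, 6045 and 5343 CPM in controls and 481, 289 and 473 CPM at 1% (log2 fold change -3.80, SE 0.31, adjusted p = 3.18e-05), and its second treated library was the lowest. EPCAM, an adhesion protein of the epithelial surface, was not called (log2 fold change 0.07, adjusted p = 0.392), with 424, 448 and 432 CPM in controls and 437, 466 and 462 CPM at 1%. CDH1, E-cadherin, stood at 506, 513 and 514 CPM in controls and 415, 472 and 436 CPM at 1% (log2 fold change -0.21, adjusted p = 0.0272 in edgeR), a call that was lost with RLE size factors, with scaling to library size alone (-0.04), with no filter, with DESeq2, and when any 1 control library or 1% replicate 1 or 3 was left out. Of 25 junction genes 14 fell and 2 rose (median -0.23), the rises numbering 6 with scaling to library size alone: the desmosomal genes DSP and JUP changed by -1.66 and -1.55 and the claudin CLDN1 by -1.79, while OCLN, occludin, rose by 0.78. DSP stood at 14100, 13390 and 15350 CPM in controls and 4901, 3668 and 5020 CPM at 1%. Genes of the actin cytoskeleton with targets of YAP and SRF fell in 16 of 19 cases and rose in 2 (median -1.13). ACTB, beta-actin, stood at 2948, 2976 and 2797 CPM in controls and 479, 549 and 492 CPM at 1% (log2 fold change -2.52, SE 0.08, adjusted p = 5.01e-12). CCN1, a YAP target, stood at 34.0, 35.7 and 33.3 CPM in controls and 7.10, 6.87 and 8.51 CPM at 1%. VIM, the mesenchymal filament vimentin, stood at 1.11, 1.12 and 1.11 CPM in controls and 0.789, 1.15 and 0.808 CPM at 1% and was not called.

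**Figure D3:**
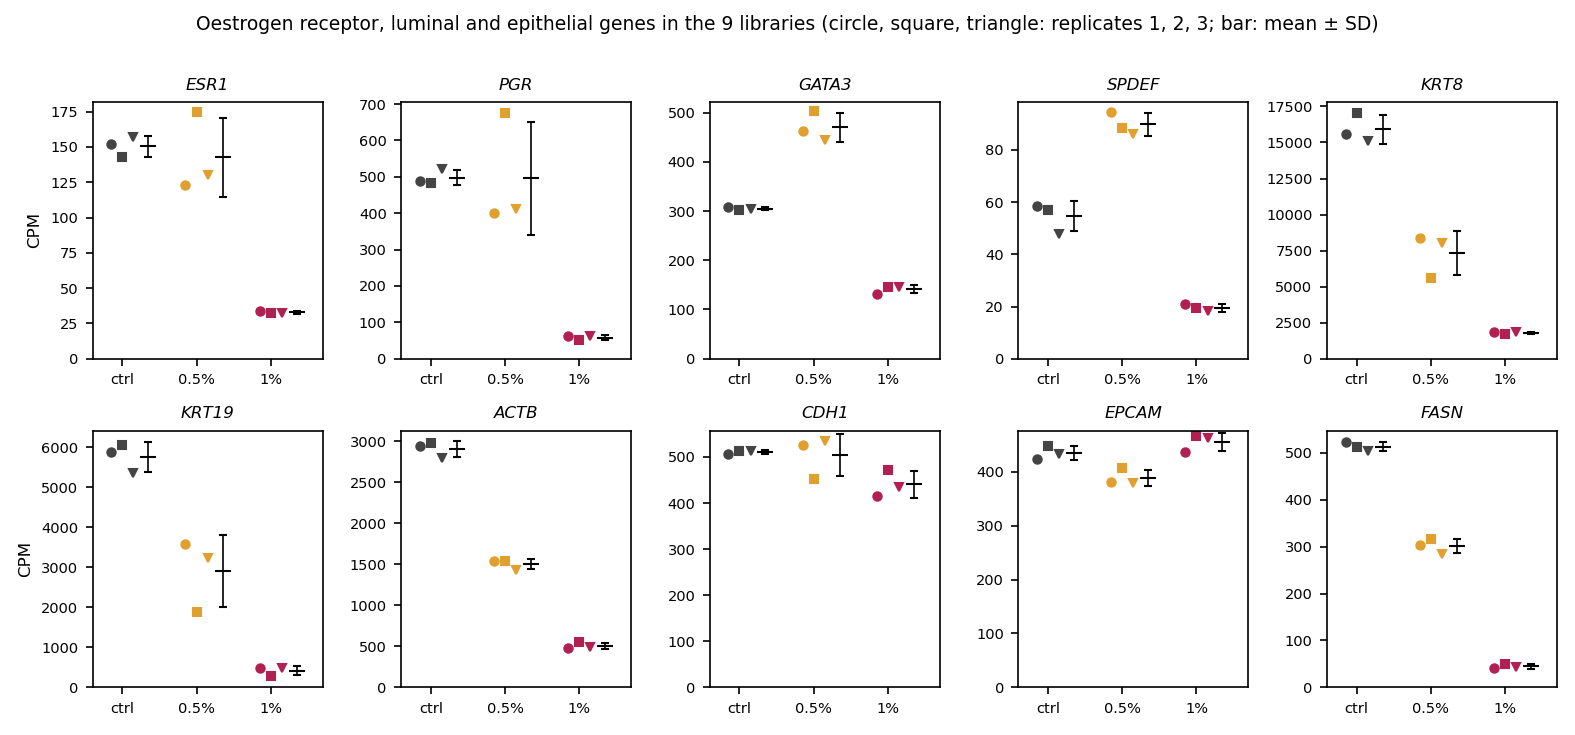
CPM (vertical axis, from 0) of 10 oestrogen receptor, luminal, epithelial and lipid genes in each of the 9 libraries, by group; circles, squares and triangles are replicates 1, 2 and 3, and the bar is the mean ± SD. GATA3 and SPDEF are highest with 0.5% and lowest with 1%, KRT8 and ACTB are lower at each dose, and EPCAM lies within 424 to 467 CPM in the control and 1% libraries.

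Growth signalling genes moved in both directions. Of 14 immediate early genes 7 fell and 2 rose (median -0.60), with 4 rises in 7 of the alternative settings, among them the replicate block and both other scalings. MYC stood at 19.2, 20.5 and 19.2 CPM in controls and 3.16, 3.41 and 2.80 CPM at 1% (log2 fold change -2.65, SE 0.13, adjusted p = 4.82e-10). FOS stood at 6.46, 5.09 and 3.98 CPM in controls and 0.329, 0.385 and 0.684 CPM at 1% (log2 fold change -3.45, adjusted p = 9.81e-06) and JUN at 146, 141 and 142 CPM in controls and 48.5, 30.8 and 49.6 CPM at 1% (log2 fold change -1.74, adjusted p = 0.00443), the second treated library being the lowest for JUN. DUSP4, a phosphatase induced by ERK that feeds back on it, stood at 138, 144 and 139.9 CPM in controls and 9.86, 13.1 and 11 CPM at 1% (log2 fold change -3.62, SE 0.15, adjusted p = 2.18e-09). Of 19 ERK feedback and ERBB receptor genes 9 fell and 5 rose (median -0.12). ERBB2 and EGFR, both receptor tyrosine kinases, fell by 1.39 and 1.06, while IRS2, an insulin receptor substrate, rose by 2.45. SOX9, a factor of progenitor cells, stood at 50.9, 49.7 and 48.6 CPM in controls and 11.7, 12.1 and 12.4 CPM at 1%, and CYP1A1, a xenobiotic-metabolizing enzyme, rose to 151, 48.9 and 151 CPM from 5.91, 5.99 and 5.09 CPM, with the second treated library the lowest of the 3.

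Replication genes fell with 1% hexanediol against control, and mitotic genes were higher with 1% than with 0.5%. Of 42 tested G1/S and replication licensing genes 37 fell and 2 rose (median -1.58). MCM5, a subunit of the replicative helicase, stood at 60.5, 59.3 and 60.9 CPM in controls and 7.76, 6.10 and 8.02 CPM at 1% (log2 fold change -3.05, SE 0.11, adjusted p = 3.48e-11). UHRF1, which keeps DNA methylation through replication, stood at 90.6, 87.3 and 97 CPM in controls and 5.06, 2.80 and 5.10 CPM at 1% (log2 fold change -4.42). CDC6, a licensing factor, stood at 80.9, 83.1 and 85.0 CPM in controls and 19.0, 14.9 and 22.2 CPM at 1% (log2 fold change -2.15, SE 0.12, adjusted p = 1.3e-09). PCNA, the sliding clamp, stood at 83.0, 89.8 and 74.4 CPM in controls and 33.3, 32.4 and 33.4 CPM at 1% (log2 fold change -1.32, SE 0.12, adjusted p = 2.32e-07). ORC6 and RFC4 were the 2 members that rose, by 0.61 and 0.29. Of 36 tested mitosis genes 15 rose and 6 fell (median 0.26), so this list is read only between the doses: the count of rises was 9 without control replicate 1 or 3, 10 without the second 1% library, 23 in a fit of the control and 1% libraries alone and 24 without the second library of both doses, and the falls numbered 3 with scaling to library size alone.

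Set beside it, 0.5% hexanediol lowered all 42 of the G1/S genes (median -2.23) and all 36 of the mitosis genes (median -1.24) against the same controls. Tested directly, all 36 mitosis genes were higher at 1% than at 0.5% (median 1.47), and this count was 36 in each of the 8 other settings tried for it, among them those without the second libraries, with the replicate block and with the GC and length correction. For the G1/S genes 27 were higher and 4 lower at 1% than at 0.5% (median 0.62). MKI67 (ENSG00000148773, chromosome 10, 128096659 to 128126385, minus strand), the proliferation marker Ki-67, stood at 803, 746 and 866 CPM in controls, 229.8, 155 and 249 CPM at 0.5% and 752, 644 and 757 CPM at 1%; the libraries with 1% overlapped the controls and were not called against them (log2 fold change -0.17, adjusted p = 0.373), and lay above every 0.5% library (1% against 0.5%: log2 fold change 1.76, SE 0.16, adjusted p = 5.15e-06). CCNB1, cyclin B1, stood at 193, 194 and 178 CPM in controls, 108, 83.9 and 104 CPM at 0.5% and 216, 251 and 224 CPM at 1% (1% against 0.5%: log2 fold change 1.22, SE 0.09, adjusted p = 7.25e-08), and its call against control was lost without 1% replicate 2, without control replicate 3 and with the GC and length correction. CENPE, a kinetochore motor, stood at 116, 116 and 121 CPM in controls, 81.8, 52.1 and 89.6 CPM at 0.5% and 316, 304 and 316 CPM at 1% and was the mitosis gene with the largest rise against control (1% against control: log2 fold change 1.41, SE 0.16, adjusted p = 1.9e-05). MCM3 showed no such step, at 300.4, 307 and 309 CPM in controls, 40.2, 63.5 and 41.8 CPM at 0.5% and 53, 42.2 and 56.2 CPM at 1%, and was low at both doses (1% against 0.5%: log2 fold change 0.06, SE 0.17, adjusted p = 0.8). MYBL2, which works with FOXM1 on late cell cycle genes, stood at 483, 457 and 445 CPM in controls, 69.6, 88.4 and 64.5 CPM at 0.5% and 286, 271 and 277 CPM at 1%.

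Genes of recombination and checkpoints were mostly lower, with 16 of 24 lower and 3 higher than control at 1% (median -0.69). BRCA1 stood at 65.7, 64.2 and 65.7 CPM in controls, 14.1, 15.9 and 16.1 CPM at 0.5% and 94.3, 81.3 and 96.4 CPM at 1%, so that the 3 groups did not overlap and the control lay in the middle (1% against 0.5%: log2 fold change 2.56, SE 0.09, adjusted p = 5.18e-11). Of 16 genes of cyclin-dependent kinase inhibitors and D cyclins 6 rose and 6 fell (median -0.07), near the 30.2% and 32.3% of all genes, which is no result about this list. CDKN1B (p27) and CDKN2D (p19), both inhibitors, rose by 1.24 and 1.98 with 1%. CDK6, a partner of D cyclins, stood at 3.06, 1.5 and 2.48 CPM in controls and 22.9, 21.6 and 24.4 CPM at 1% (log2 fold change 3.28, SE 0.19, adjusted p = 2.58e-09). CDK2 and CCNE1, which drive entry into S phase, fell by 1.45 and 2.27.

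E2F sites mark many replication genes. The form TTTCCCGC lay in 9 of the 35 G1/S genes with a promoter window (25.7%), against 2.51% of all windows, and TTTGGCGC in another count of 9 (25.7% against 1.04%); in mitosis genes they lay in 1 and 0 of 30 windows. Windows of genes lower at least 2-fold held them in 3.51% and 1.39%, and those of genes higher at least 2-fold in 1.44% and 0.759%. These shares were not adjusted for base composition either. Stretches from 4 replication genes that fell are shown, with the element in capitals, in reverse complement in MCM7 and UHRF1 and in 2 copies in MCM6.
MCM3 (chr6:52284889-52284936, minus strand): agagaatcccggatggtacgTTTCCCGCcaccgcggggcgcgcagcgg
MCM6 (chr2:135876506-135876615, minus strand): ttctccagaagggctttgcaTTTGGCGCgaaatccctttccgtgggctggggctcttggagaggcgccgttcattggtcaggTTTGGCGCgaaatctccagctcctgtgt
MCM7 (chr7:100101557-100101604, minus strand): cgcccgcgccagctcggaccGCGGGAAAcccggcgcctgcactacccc
UHRF1 (chr19:4909467-4909500, plus strand): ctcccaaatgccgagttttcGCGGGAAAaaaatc
MCM6 stood at 76.9, 79.6 and 82.5 CPM in controls and 29.2, 26.3 and 34.1 CPM at 1% (log2 fold change -1.42, adjusted p = 3.43e-06). MCM7 stood at 111, 114 and 105 CPM in controls and 31.0, 24.3 and 24.7 CPM at 1% (log2 fold change -2.04, adjusted p = 2.55e-10).

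**Figure D4:**
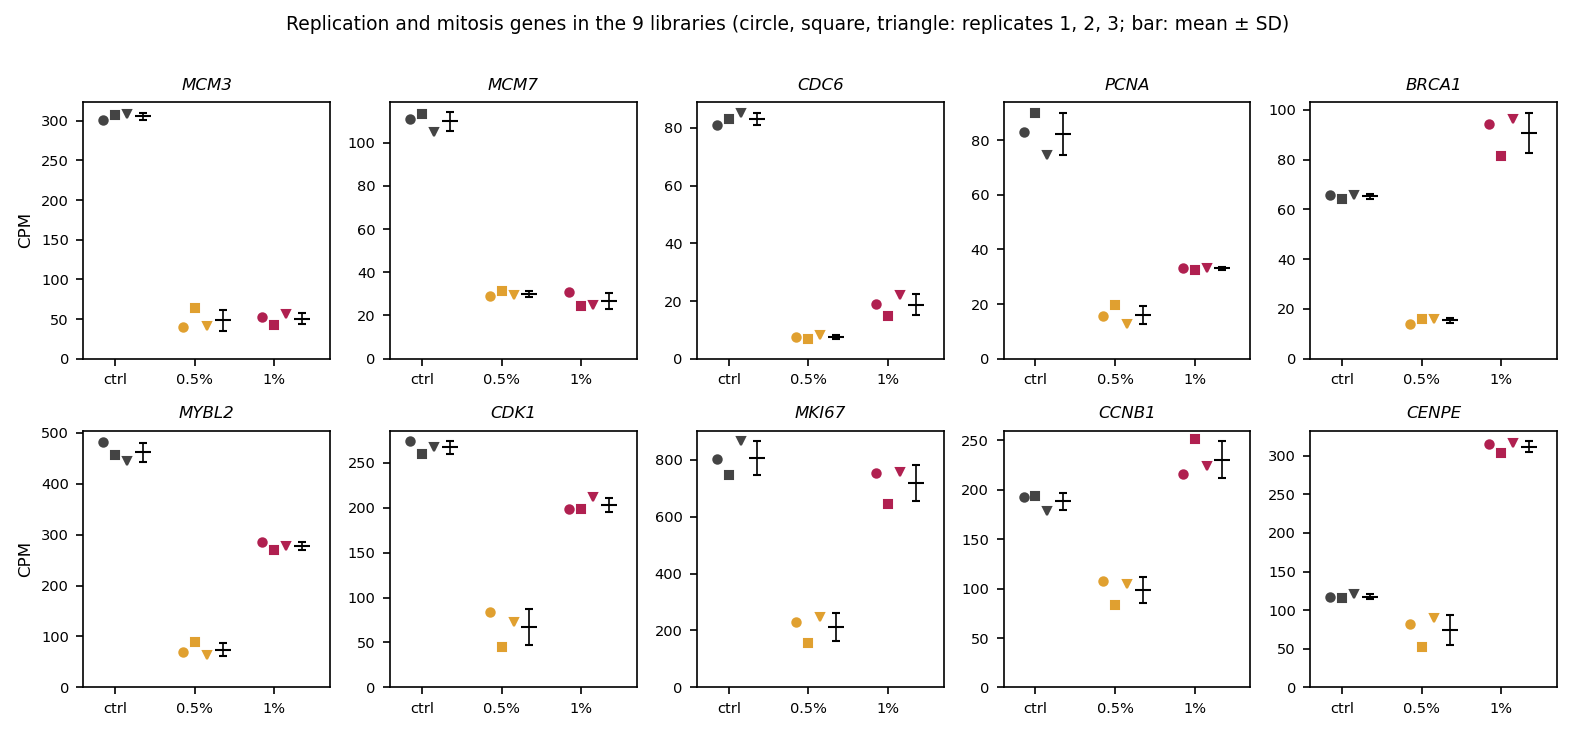
CPM (vertical axis, from 0) of 10 replication and mitosis genes in each of the 9 libraries, by group; circles, squares and triangles are replicates 1, 2 and 3, and the bar is the mean ± SD. MCM3 and MCM7 are low at both doses, whereas BRCA1, MKI67, CCNB1 and CENPE are lowest with 0.5% and the 1% libraries lie above every 0.5% library in all 4.

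Genes of lipid synthesis fell. FASN, fatty acid synthase, stood at 522, 512 and 505 CPM in controls and 41.3, 49.7 and 43.0 CPM at 1% (log2 fold change -3.52, SE 0.08, adjusted p = 8.91e-13). SREBF1, the transcription factor that drives it, stood at 108, 111 and 115 CPM in controls and 22.4, 24.4 and 24.4 CPM at 1% (log2 fold change -2.23, SE 0.11, adjusted p = 1.07e-09). SCD, the stearoyl-CoA desaturase, stood at 2728, 2664 and 2834 CPM in controls and 800.1, 692 and 833 CPM at 1% (log2 fold change -1.82, adjusted p = 0.000305). Of 23 tested genes of fatty acid synthesis and lipid droplets 15 fell and 7 rose (median -0.75), and of 24 cholesterol synthesis genes 19 fell and 1 rose (median -1.10). MVD, of the mevalonate pathway, changed by -2.52. DGAT2, which makes triglycerides, stood at 0.834, 0.974 and 0.913 CPM in controls and 4.21, 4.01 and 3.79 CPM at 1% (log2 fold change 2.13, adjusted p = 4.86e-07). PPARGC1A, a coactivator of mitochondrial biogenesis, rose by 1.63, and ALDH3A2, a dehydrogenase of fatty aldehydes, by 1.68.

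Mitochondria-encoded messages fell while mitochondrial ribosomal RNA rose. Of 15 tested genes of the mitochondrial genome 12 fell and 2 rose (median -1.25), and those that rose were MT-RNR1 and MT-RNR2, the ribosomal RNAs. MT-CO3, a subunit of cytochrome oxidase, stood at 3307, 3176 and 3441 CPM in controls and 463, 703 and 519 CPM at 1% (log2 fold change -2.56, SE 0.13, adjusted p = 5.17e-09). MT-ND3, of complex I, stood at 1018, 1057 and 1001 CPM in controls and 223, 288 and 223 CPM at 1% (log2 fold change -2.07, SE 0.12, adjusted p = 1.33e-08). MT-ND5 fell least among the called messages, by 0.54, and MT-ND6, the message on the other strand, was not called (log2 fold change -0.43, adjusted p = 0.0784), though it was called lower in 5 alternative settings at log2 fold changes from -0.45 to -0.39. MT-RNR2 stood at 7142, 7153 and 7191 CPM in controls and 16990, 14870 and 17100 CPM at 1% (log2 fold change 1.19, SE 0.16, adjusted p = 0.000128), the largest gain in CPM of any gene with groups that did not overlap. The library preparation selected polyadenylated RNA, and the part of that selection in the rise of ribosomal RNA was not tested. Of nuclear-encoded respiratory chain genes 18 of 30 fell and 3 rose (median -0.38); COX4I1 fell by 0.49.

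Genes of cytosolic ribosomal proteins and of ribosome biogenesis mostly fell. Of 34 tested cytosolic ribosomal protein genes 33 fell and 0 rose (median -0.56), most by less than 2-fold. RPL3 stood at 1328, 1404 and 1273 CPM in controls and 653, 649.6 and 674 CPM at 1% (log2 fold change -1.02, SE 0.07, adjusted p = 2.19e-08). RPS6 stood at 1259, 1406 and 1280 CPM in controls and 854, 886 and 888 CPM at 1% (log2 fold change -0.59, adjusted p = 5.64e-06). Of 26 genes of ribosome biogenesis 16 fell and 3 rose (median -0.57), with 6 rises when scaled to library size alone: the snoRNP protein NOP56 fell by 1.25 and nucleolin, NCL, by 0.58. Processed pseudogenes resemble many of these genes as well as KRT8, KRT18, ACTB, HSPA8 and LDHA, and the sources used here do not say how shared reads were counted, so their levels are uncertain.

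Genes for the machinery thought to form nuclear condensates changed in both directions. Of 39 tested genes of Mediator, BET proteins and elongation factors 18 rose and 15 fell (median -0.04). CDK8, the Mediator kinase, stood at 21.6, 23.4 and 20.4 CPM in controls and 59.0, 48.0 and 55.4 CPM at 1% (log2 fold change 1.31, adjusted p = 2.46e-08). Among 30 scaffolds of RNA granules, speckles and paraspeckles 19 fell and 6 rose (median -0.29). NEAT1, the RNA on which paraspeckles form, stood at 1231, 1183 and 1282 CPM in controls and 669.6, 782 and 667 CPM at 1% (log2 fold change -0.80, adjusted p = 2.73e-07). G3BP1, the core of stress granules, stood at 249.6, 256 and 257 CPM in controls and 146, 152 and 152 CPM at 1% (log2 fold change -0.76, adjusted p = 3.65e-07). SRSF1, a splicing factor of speckles, stood at 38.5, 45.0 and 36.6 CPM in controls and 13.7, 14.8 and 12.6 CPM at 1% (log2 fold change -1.55, adjusted p = 4.73e-08). CBX5, the heterochromatin protein HP1 alpha, fell, with 511, 467 and 570.0 CPM in controls and 136, 133 and 134 CPM at 1% (log2 fold change -1.95, SE 0.11, adjusted p = 3.18e-09). Of 20 genes of CTCF, cohesin and looping 11 rose and 7 fell (median 0.21); CTCF, which anchors chromatin loops, rose by 0.43.

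Hypoxia genes fell on balance, but the size of the fall and many of the calls depended on the second libraries. Levels of hypoxia markers in the hexanediol controls differed in both directions from those of hypoxic shCtrl cells. NDRG1, a hypoxia marker, stood at 218 to 231 CPM in them, against 6.10 to 7.59 CPM in the normoxic and 477 to 492 CPM in the hypoxic shCtrl libraries, a table that was scaled on its own. CA9, a carbonic anhydrase and HIF target, stood at 0.417 to 1.42 CPM in the hexanediol controls and 23.0 to 24.4 CPM in hypoxic shCtrl cells. ADM, adrenomedullin, stood at 22.5 to 24.4 CPM in them, below both the normoxic (30.2 to 32.1 CPM) and the hypoxic shCtrl libraries (105 to 109.9 CPM). LDHA and VEGFA were higher in the hexanediol controls, at 1994 to 2036 and 477 to 516 CPM, than in hypoxic shCtrl cells, at 1112 to 1132 and 239.6 to 248 CPM. With all libraries 16 of 37 tested hypoxia response genes fell and 1 rose (median -1.08). The second 1% library was the lowest of the 3 in 36 of the 37. Without the second library of both doses the spread between libraries shrank, and 26 fell and 9 rose (median -0.85), where 34.8% and 32.2% of all genes were called; without only the second 1% library the counts were 12 and 3. Genes that were low in all 3 treated libraries were CITED2, a coactivator-binding protein that competes with HIF (343, 344 and 348 CPM in controls and 23.5, 12.9 and 25.5 CPM at 1%), and ANGPTL4, a lipase inhibitor (103, 107 and 98.1 CPM in controls and 4.21, 1.43 and 5.22 CPM at 1%). With both second libraries left out their log2 fold changes were -3.82 and -4.44. NDRG1 stood at 231, 223 and 218 CPM in controls and 126, 26.5 and 122 CPM at 1% and was not called with all libraries (log2 fold change -1.29, adjusted p = 0.264), and fell by 0.85 without the second libraries (adjusted p = 1.53e-13 in edgeR). BNIP3, a mitophagy receptor, stood at 226, 244 and 215 CPM in controls and 199, 52.8 and 205 CPM at 1%, changed by -0.59 with no call, and by -0.18 without them (adjusted p = 0.00592 in edgeR). VEGFA, the angiogenic factor, stood at 485, 516 and 476 CPM in controls and 498, 357 and 523 CPM at 1% and was called in neither (log2 fold change -0.10 and 0.05). STC1, a secreted glycoprotein outside this list, stood at 19.4, 20.1 and 20.2 CPM in controls and 26.4, 1.98 and 27.5 CPM at 1%, with no call for all libraries (log2 fold change -0.11, adjusted p = 0.919) and a rise of 0.44 without the second ones (adjusted p = 3.69e-05 in edgeR). Without only the second 1% library NDRG1, BNIP3 and STC1 were not called (adjusted p = 0.472, 0.838 and 0.353 in edgeR). Their calls thus appeared only when the second 0.5% library was left out as well. The second libraries were set apart for their low level in hypoxia genes, and the p-values do not allow for that choice. The 9 that rose without the second libraries were NDUFA4L2, PPP1R3C, LOX, KDM3A, ANKRD37, EGLN1, RORA, MXI1 and P4HA2, with log2 fold changes from 0.27 to 1.91. Among them EGLN1 is an oxygen-sensing hydroxylase and KDM3A a histone demethylase, both known HIF targets.

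Most glycolytic genes fell. Of 23 tested genes 16 fell and 2 rose (median -1.79), and 20 fell and 3 rose without the second libraries of both doses (median -1.60). LDHA (ENSG00000134333, chromosome 11, 18394388 to 18408425, plus strand), lactate dehydrogenase A, stood at 2036, 2035 and 1994 CPM in controls and 411, 104 and 416 CPM at 1%, so that the second library was far below the others and all 3 lay below the controls (log2 fold change -2.71, SE 0.80, adjusted p = 0.0242). The call was lost when any 1 control library, or 1% replicate 1 or 3, was left out (adjusted p up to 0.0547 in edgeR), and leaving out both second libraries gave -2.29 with an SE of 0.057. ENO1, enolase, stood at 3771, 4126 and 3626 CPM in controls and 872, 452 and 916 CPM at 1% (log2 fold change -2.36, SE 0.37, adjusted p = 0.00124). PGK1, phosphoglycerate kinase, stood at 812, 839 and 803 CPM in controls and 163, 82.3 and 169 CPM at 1% (log2 fold change -2.57, SE 0.60, adjusted p = 0.00938). SLC2A1, the glucose transporter GLUT1, stood at 126, 115 and 118 CPM in controls and 30.8, 15.7 and 34.9 CPM at 1% (log2 fold change -2.14, SE 0.51, adjusted p = 0.00988). HK2, hexokinase, stood at 77.8, 73.7 and 84.8 CPM in controls and 84.1, 34.0 and 93.1 CPM at 1% and was not called (log2 fold change -0.17, adjusted p = 0.746). Without the second libraries of both doses it was called slightly higher, at 0.17 (adjusted p = 0.0159 in edgeR). Without only the second 1% library HK2 was not called (0.17, adjusted p = 0.551 in edgeR). SLC16A1, a lactate and pyruvate transporter, rose by 1.25, and SLC16A3, the hypoxia-induced lactate exporter, fell by 2.24.

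The core of the hypoxia response element, ACGTG, lay in 18 of 29 promoter windows of the hypoxia response list (62.1%), in 9 of 22 of the glycolysis list (40.9%), and in 24.0% of windows of genes higher at least 2-fold, 24.1% of genes lower at least 2-fold and 26.0% of all 11970. Stretches from 2 genes that fell are shown, with the core and its reverse complement in capitals; where both strands overlap they read CACGTG.
LDHA (chr11:18394358-18394514, plus strand): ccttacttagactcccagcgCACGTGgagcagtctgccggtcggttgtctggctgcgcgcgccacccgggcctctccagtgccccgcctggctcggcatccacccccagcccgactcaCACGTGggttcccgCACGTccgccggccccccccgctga
CITED2 (chr6:139374776-139374821, minus strand): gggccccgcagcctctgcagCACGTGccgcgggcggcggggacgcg

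Oxygen-sensing genes themselves were called about as often as all genes, 5 of 15 higher and 5 lower (median 0.09), beside 30.2% and 32.3% of all genes tested. The counts are therefore no result about this list. With scaling to library size alone 8 were higher. VHL, the ubiquitin ligase subunit that marks HIF for decay, stood at 38.8, 36.3 and 36 CPM in controls and 88.8, 96.5 and 89.0 CPM at 1% (log2 fold change 1.30, SE 0.07, adjusted p = 1.87e-09). HIF1A stood at 81.8, 82.2 and 91.2 CPM in controls and 127, 146 and 136 CPM at 1% (log2 fold change 0.68, adjusted p = 1.15e-05). EPAS1, which encodes HIF2 alpha, fell by 0.74, and the hydroxylase genes EGLN2 and EGLN3 fell by 1.69 and 2.11. ZHX2 itself stood at 11.3, 12.1 and 12.7 CPM in controls and 17.1, 19.6 and 16.4 CPM at 1% (log2 fold change 0.56, adjusted p = 0.000751).

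Genes that hypoxia raised in shCtrl cells were set beside all genes. Of 14003 genes tested in both tables, 35.8% were lower and 31.6% higher with 1% hexanediol. Hypoxia raised 15.3% of the genes tested in its own table at least 2-fold and lowered 21.8%, and shZHX2 in hypoxia lowered 9.64% at least 2-fold. Of the 1896 hypoxia-induced genes 896 were lower (47.3%) and 303 higher (16.0%) with 1% hexanediol, with a median of -0.49. Of the 345 that were both hypoxia-induced and lower with shZHX2, 181 were lower (52.5%, and 3.61% of all 5011 lower genes) and 37 higher (10.7%), with a median of -0.72, against 46.1% and 17.2% for hypoxia-induced genes that were not lower with shZHX2. Without the second 1% library 47.4% of the 345-gene class, 344 of which were then tested, were lower. GC content moved with these classes: its median was 58.2% in hypoxia-induced, 40.8% in hypoxia-repressed and 49.1% in all genes tested in both tables. With both tables corrected for GC and length the classes were drawn again, with 1554 hypoxia-induced genes, 232 of them also lower with shZHX2. Of these classes 39.6% and 45.3% were lower with 1% hexanediol, against 33.1% of all genes. Of the 3231 hypoxia-repressed genes 51.8% were higher before and 34.3% of 1550 after the correction, against 31.6% and 30.7% of all genes. These shares describe the classes, and no test of a difference between them was made.

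Some genes were called at both doses in opposite directions against the shared controls. Of these, 340 were higher at 1% and lower at 0.5%, and 397 the reverse. Among all 16840 genes tested, 30.2% were higher at 1% and 19.6% lower at 0.5%. For the reverse, 32.3% were lower at 1% and 19.4% higher at 0.5%. These shares are over all genes without the limits set on the counts, so 340 and 397 cannot be read against them directly. Whether the counts differ from what the shares alone would give was not tested. DHRS2, a short-chain dehydrogenase, stood at 1.60, 1.12 and 1.37 CPM in controls, 0.580, 0.529 and 0.873 CPM at 0.5% and 9.34, 10.7 and 10.4 CPM at 1% (1% against 0.5%: log2 fold change 3.92, SE 0.21, adjusted p = 1.51e-09). HRK, a BH3-only death gene, stood at 1.04, 1.05 and 0.913 CPM in controls, 0.580, 0.331 and 0.336 CPM at 0.5% and 5.39, 5.33 and 5.47 CPM at 1% (1% against 0.5%: log2 fold change 3.67, SE 0.24, adjusted p = 1.21e-08). SRARP, a small protein regulated by steroid receptors, moved the other way and stood at 1.46, 1.65 and 2.02 CPM in controls, 5.80, 5.76 and 6.18 CPM at 0.5% and 0.197, 0.220 and 0.435 CPM at 1% (1% against 0.5%: log2 fold change -4.35, SE 0.27, adjusted p = 6.49e-09), and PIP, a secreted protein of apocrine cells that is induced by androgen, at 16.9, 14 and 14.9 CPM in controls, 29.3, 28.8 and 23.6 CPM at 0.5% and 2.1, 1.48 and 2.92 CPM at 1% (1% against 0.5%: log2 fold change -3.66, SE 0.18, adjusted p = 8.84e-10). MAP1B, a microtubule-associated protein and one of the largest rises against control, stood at 6.67, 5.17 and 6.26 CPM in controls, 5.55, 4.43 and 7.05 CPM at 0.5% and 130.0, 173 and 140.3 CPM at 1% (1% against 0.5%: log2 fold change 4.70, SE 0.16, adjusted p = 1.99e-10). Interferon-stimulated genes leaned upward, with 12 of 25 higher and 4 lower at 1% (median 0.60) and 12 higher and 5 lower at 0.5%. IFIT1 stood at 3.20, 3.67 and 3.85 CPM in controls and 25.3, 25.9 and 26.1 CPM at 1% (log2 fold change 2.85, SE 0.13, adjusted p = 1.98e-10). ISG15 was not called at 0.834, 1.72 and 1.24 CPM and 0.855, 0.769 and 0.808 CPM.

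Smaller lists were mixed. Of 18 histone genes 11 fell and 6 rose (median -0.46), of 27 genes of matrix and invasion 11 fell and 4 rose (median -0.42), and of 14 genes of alcohol and aldehyde metabolism, the enzymes that could act on an alcohol, 8 fell and 4 rose (median -0.31). Of 16 genes of fatty acid oxidation 9 fell and 4 rose (median -0.34). The metallothioneins MT1X and MT1F, which bind metals, rose by 1.93 and 2.23 from levels below 1 CPM. MT2A, the third metallothionein tested and the most abundant, stood at 71.8, 78.5 and 66.2 CPM in controls and 71.8, 78.8 and 76.9 CPM at 1% and was not called (log2 fold change 0.07, adjusted p = 0.551), but was called higher with scaling to library size alone and with the GC and length correction. Of 9 NF-kB targets 5 rose and 1 fell, the rises numbering 3 when any 1 control library was left out.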

How the data were processed

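The authors deposited a table of raw counts per gene for the 9 hexanediol libraries and one that holds the shRNA libraries, and these whole-number counts were used as deposited. Polyadenylated whole-cell RNA was sequenced as paired-end reads, per the labels' protocols. The submitters' processing notes name HISAT2, featureCounts, FastQC, DESeq2 and the build hg38; the sources used here do not give versions, strand setting, annotation or the counting of shared reads.

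All 9 libraries were fitted together in R 4.3.3 with edgeR 4.0.16 (filterByExpr, TMM, robust quasi-likelihood test), the contrast being 1% hexanediol against control. Adjusted p-values are Benjamini-Hochberg values over all 16840 genes tested, and a call is an adjusted p under 0.05. Fold changes and adjusted p-values in the text are from this edgeR test and compare 1% with control unless 1% against 0.5% or a setting is named. The standard error (SE) was taken from the F statistic, as the size of the log2 fold change over its square root. CPM values are TMM-scaled. The common biological coefficient of variation was 10.2%. The fit was also run on simulated counts with few changed genes and no deviating library. These data differ from that setting on both points, and nothing above rests on the run. Gene symbols were matched by identifier for 60370 of 60624 genes, and gene coordinates, lengths and GC content are from GENCODE on GRCh38 (58437 genes matched); promoter windows are from RefSeq, GRCh38.p14, and were matched for 71.1% of tested genes.

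The gene lists (42 lists, 927 tested members) and the genes described were chosen with earlier results of these data known. Genes named are the key members of each list, up to 4 called members per list with the largest change, the 10 largest gains and losses in CPM, the 8 largest rises and falls, up to 5 genes in each direction that moved oppositely at the doses, and those in which the second 1% library deviated most. Other list members were named after their values were seen. Lists overlap, and not every named member is reported here.

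Same-numbered libraries of control and 1% did not deviate together (correlations of 0.005, 0.042 and 0.031), whereas those of 0.5% and 1% did (0.12, 0.318 and 0.116). No label states a pairing by number, and the main fit used none. Differently numbered libraries 1 and 3 of the doses correlated as highly (0.13 and 0.168), so only the second libraries are set apart by their number. Alternatives were RLE size factors, scaling to library size alone, no filter, DESeq2 1.42.0, a fit of the 2 groups compared only, leaving out each library, leaving out the second library of both doses, and the replicate block. That block took the replicate number as a factor over all 9 libraries, controls included. A correction of GC content and length was added after the data were seen.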

Additional observations from a re-analysis of the deposited data

How the results depend on the processing

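Under the alternatives run, the counts of called genes over all genes tested stayed within 1.5 times their values in every setting, while some small counts within lists moved further. Leaving out 1 control or 1% library at a time gave 4618 to 4858 genes higher and 4956 to 5228 lower with 1% hexanediol, and 1848 to 1944 higher and 2116 to 2176 lower at least 2-fold. With the replicate block 5183 genes were higher and 5578 lower than in control, and 4967 higher and 4842 lower at 1% than at 0.5%; it changed the side of the threshold for none of the 192 genes recomputed one by one. DESeq2 gave 4929 higher and 4832 lower. The hypoxia classes were drawn again in the next 2 settings and so hold other genes. Of hypoxia-induced genes 39.6% were lower with 1% hexanediol after the GC and length correction and 49.2% with no fold threshold. Of those also lower with shZHX2 the shares were 45.3% and 63.6%.

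Uncalled genes near 0 changed sign. With scaling to library size alone the log2 fold changes were 0.01 for MKI67, 0.02 for HK2, 0.08 for VEGFA and 0.08 for STC1. Without the second 1% library, and equally without the second library of both doses, they were 0.17 for HK2, 0.05 for VEGFA and 0.44 for STC1. After the GC and length correction VEGFA was at 0.02 and RORA at -0.05, RORA also with the replicate block. Leaving out 1 control or 1% library at a time spanned -0.42 to 0.17 for HK2, -0.20 to 0.05 for VEGFA, -0.51 to 0.44 for STC1 and -0.21 to 0.78 for ANKRD37. The cause of these changes was not tested. Depth limits the genes of a few reads, such as ASNS in controls.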
